A study of Mus musculus with 8 samples.

Results

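Reference genes are the genes whose RNA or protein is assumed to be level between samples, so that a blot or a qPCR can be scaled to them. The 9 genes described here, Actb, Actg1, Gapdh, Hprt, Ppia, Tbp, Ywhaz, Gusb and Sdha, are in common use for this purpose in mouse cells, and were taken by symbol from the 24346 genes listed. All 9 were above 0 in every library. They were compared between 2D-cultured and 3D-cultured adipose-derived stem cells (ADSCs) and ranked by how steady they were, first on the values as deposited and then after normalization. The methods of the study name vinculin, beta-actin and GAPDH as loading controls of its blots, and do not name the reference gene of its qPCR. The paper reports less beta-actin and vinculin protein in organotypic than in conventional culture, and no significant difference in GAPDH protein. As deposited, the RNA of Actb, Vcl and Gapdh was lower in every 3D library than in any 2D library. The relation of RNA to protein was not tested.

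Total RNA of 8 primary cultures was sequenced after depletion of ribosomal RNA. The cells came from gonadal fat of wild-type male BALB/c mice, 12 weeks old. The 4 2D cultures were from mice 2, 3, 4 and 5, and the 4 3D organotypic cultures, grown in Matrigel, were from mice 1, 4, 5 and 7. Mice 4 and 5 therefore gave a culture of each kind, and the medium of the sequenced cultures is not given in the sources used here. The paper passaged its 3D cultures multiple times, and its sequencing methods do not state a passage for either culture.

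The labels call the cells of both cultures mesenchymal stem cells, and the markers of the 2 cultures differed. The summed level of 12 stromal markers lay between 2098 and 4530 FPKM (fragments per kilobase of transcript and per unit of library depth, after quantile normalization) in 2D and between 4.78 and 8.71 FPKM in 3D, where Pdgfrb, Dcn and Lum were listed at 0 in all 4 libraries. The summed level of 9 epithelial markers lay between 29.0 and 437 FPKM in 2D and between 1370.2 and 1696 FPKM in 3D. All 9 passed as higher in 3D after quantile normalization and 8 as deposited (limma, adjusted p below 0.05). Of all 18862 genes tested, 21.2% and 22.7% passed as higher on these scales. Crb3, Esrp1 and Elf3 were listed at 0 in all 2D libraries. Mouse 4 stood apart among the 2D libraries, with 437 FPKM of epithelial markers against at most 61.7 FPKM in the others. Endothelial markers summed to at most 6.74 FPKM and macrophage markers to at most 42.3 FPKM in any library. The part of this difference in cell markers in the results on the reference genes was not tested. The amount of a transcript per cell and the share of cells that make it cannot be told apart in these bulk libraries.

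These genes belong to basic cell functions. Actb and Actg1 encode the cytoplasmic beta and gamma actins, which polymerize into the filaments of the cytoskeleton. Their genes are known targets of serum response factor (SRF), whose cofactors of the MRTF family (Mkl1, Mkl2) are held in the cytoplasm by unpolymerized actin. Gapdh encodes a glycolytic enzyme, Sdha the flavoprotein subunit of succinate dehydrogenase in the citric acid cycle and respiratory chain, Hprt an enzyme of purine salvage, and Gusb the lysosomal beta-glucuronidase. Ppia encodes cyclophilin A, a prolyl isomerase, Ywhaz the zeta member of the 14-3-3 adaptor proteins, and Tbp the TATA-binding protein of the general transcription factor TFIID.

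As the deposited FPKM values stood, the actins were far lower in 3D than in 2D, Gusb, Gapdh and Ppia were lower by factors between 1.95 and 2.72, and Hprt by a factor of 1.36. Tbp, Sdha and Ywhaz overlapped between the cultures. Of the 9 genes, 6 fell in 3D by limma on log2(FPKM + 1) with an adjusted p below 0.05, and none rose, while 44.3% of all 18862 genes tested passed in either direction (21.6% of all genes lower and 22.7% higher in 3D). The libraries of the 2 cultures did not overlap for the same 6 genes, against 45.5% of all genes tested. After quantile normalization, which the methods of the study name as their next step, 5 of the 9 passed. Actb, Actg1, Gapdh and Gusb fell and Sdha rose, against 41.5% of all genes in either direction, 20.3% lower and 21.2% higher. No overlap between the cultures was found for these 5, against 42.5% of all genes. Among the 12583 genes whose mean reached 1 FPKM, 55.8% passed, so that a share of 5 of 9 is close to that of expressed genes in general.

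**Figure D1:**
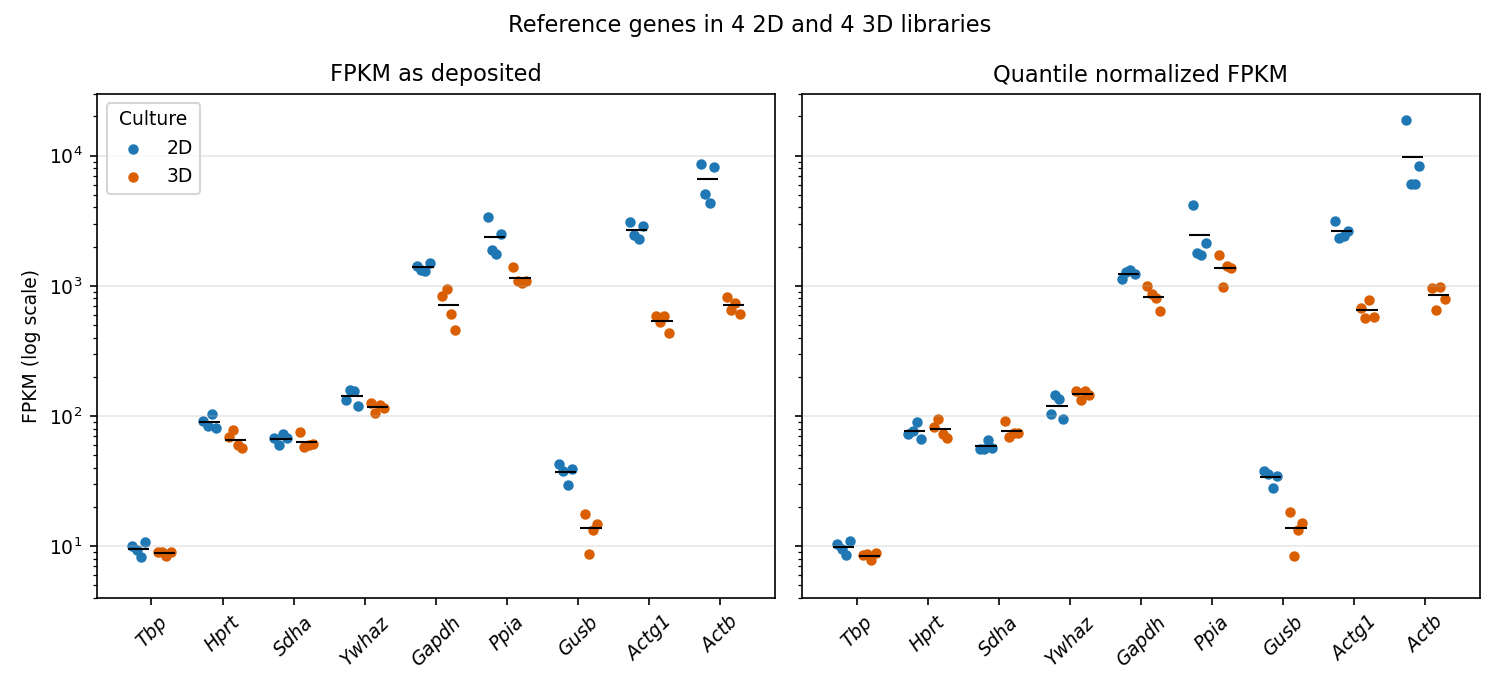
FPKM of each reference gene (log axis) in the 4 2D libraries (blue) and the 4 3D libraries (orange), as deposited on the left and after quantile normalization on the right. Points are libraries and bars are group means. Actb and Actg1 lie lower in all 3D libraries on both scales, while Tbp overlaps on both.

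Beta-actin showed the largest change. The deposited Actb values in 2D were 8663 FPKM in mouse 2, 5117 FPKM in mouse 3, 4308 FPKM in mouse 4 and 8135 FPKM in mouse 5. In 3D they were 820.4 FPKM in mouse 1, 657 FPKM in mouse 4, 738 FPKM in mouse 5 and 609.7 FPKM in mouse 7. The cultures did not overlap, and the highest 3D library was far below the lowest 2D library. The group means were 6556 ± 2165 FPKM in 2D and 706 ± 92.7 FPKM in 3D (SD, n = 4 each), a factor of 9.28. The log2(FPKM + 1) difference, 3D minus 2D, was -3.16 (SE 0.35, limma adjusted p = 0.000285) as deposited and -3.38 (SE 0.43, limma adjusted p = 0.000632) after quantile normalization. The quantile step raised Actb to 18800 FPKM for mouse 2 in 2D and gave mice 3 and 4 the same value, 6051 FPKM.

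Gamma-actin moved the same way to a lesser extent. The deposited Actg1 values in 2D were 3109 FPKM in mouse 2, 2455 FPKM in mouse 3, 2276 FPKM in mouse 4 and 2902 FPKM in mouse 5. The 3D values were 582 FPKM in mouse 1, 527 FPKM in mouse 4, 591 FPKM in mouse 5 and 434 FPKM in mouse 7. The cultures were separate, with means a factor of 5.04 apart. The log2 difference was -2.33 (SE 0.21, limma adjusted p = 0.000106) as deposited and -2.02 (SE 0.19, limma adjusted p = 0.000135) after quantile normalization. Within each culture Actg1 was much steadier than between them, with a pooled SD of 0.21 log2 units within cultures and an SD of 1.26 log2 units over the 8 libraries as deposited.

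Because Actb fell further than Actg1, the balance of the cytoplasmic actins differed between the cultures. Actb made up between 65.4% and 73.7% of the FPKM of both actins in 2D and between 55.5% and 58.5% in 3D. The log2 ratio of Actb to Actg1 was 1.24 ± 0.29 in 2D and 0.41 ± 0.10 in 3D (SD, n = 4 each). It fell by 0.83, with a two-sided exact permutation p of 0.0286, the smallest that 4 against 4 libraries allow, and an adjusted p of 0.0411 over 36 pairs. It was also lower in 3D within each of the mice sampled in both cultures, by 0.60 in mouse 4 and 1.17 in mouse 5.

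The coding sequences of these genes are close, so that the reads of one could in part be counted to the other, and how the authors assigned such reads is not given in the sources used here. Over 1128 coding bases they differ at 128, and 88.65% are identical, with a longest identical run of 62 bases (GENCODE M21, GRCm38). The first 60 coding bases, from the genomic spans chr5:142905627-142905686 and chr11:120348032-120348091, both on the minus strand, are shown with the 9 bases that differ in capitals.
Actb: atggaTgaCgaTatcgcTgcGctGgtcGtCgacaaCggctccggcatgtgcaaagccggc
Actg1: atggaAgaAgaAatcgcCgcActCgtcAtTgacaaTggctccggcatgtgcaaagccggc
Actb lies at chr5:142903115-142906754 and Actg1 at chr11:120345690-120348542, both protein-coding genes on the minus strand.

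Vinculin, which links actin filaments to focal adhesions and is also used as a blot control, fell with the actins. The deposited Vcl values were 289.6 FPKM in mouse 2, 326 FPKM in mouse 3, 255 FPKM in mouse 4 and 305 FPKM in mouse 5 in 2D. Under 3D culture the values were 52.6 FPKM in mouse 1, 59.4 FPKM in mouse 4, 58.0 FPKM in mouse 5 and 49.6 FPKM in mouse 7. The cultures were separate on this gene too, with a log2 difference of -2.40 (limma adjusted p = 2.2e-06) as deposited and -1.88 (SE 0.13, limma adjusted p = 3.1e-05) after quantile normalization.

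The CArG box is the DNA element that SRF binds, and it was searched for in the promoter windows of RefSeq (GRCm38.p6), which are 300 bases long and lie mostly before a start. An entry was found for 7 of the 9 reference genes, and not for Actb and Ywhaz. Of the 7, only Actg1 held a CArG box, against 1.63% of 32817 windows, and the window of Vcl held one too. The box, a palindrome, was searched on both strands and is shown in capitals. It starts 90 bases before the start of Actg1 (chr11:120348551-120348610, minus strand) and 227 bases before that of Vcl (chr14:20929148-20929205, plus strand).
Actg1: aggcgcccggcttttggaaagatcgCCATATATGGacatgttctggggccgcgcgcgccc
Vcl: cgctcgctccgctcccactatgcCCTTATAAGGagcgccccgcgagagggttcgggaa
Other elements were searched on both strands as well. TATAAA was found in 1 of the 7 windows, that of Ppia, 29 bases before its start, and in 13.62% of all windows. The letters CCAAT were in 2 of the 7 and in 37.39% of all windows. The letters GGGCGG were in 4 of the 7 and in 35.63% of all windows. These matches describe the sequence and do not show that a factor bound there. Their part in the fall of Actg1 and Vcl was not tested.

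Most of the listed actin genes were lower in 3D as well. Of 6 actin family genes tested, 4 fell after quantile normalization and none rose, against 20.3% of all genes lower and 21.2% higher. Their median log2 difference was -2.43, while the median over all 18862 genes was 0.0012. The smooth muscle actin Acta2 had a mean of 1667 ± 825 FPKM in 2D and 0.634 ± 0.17 FPKM in 3D (SD, n = 4 each, quantile normalized). The other muscle actins, Acta1 and Actg2, were listed at 0 in all 3D libraries, and Actr3 of the Arp2/3 complex fell by 1.26. Actr2 of the same complex had a difference of -0.15 (limma adjusted p = 0.262), and Actl6a, an actin-related subunit of chromatin complexes, one of -0.05 (limma adjusted p = 0.760).

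Of 20 genes of actin binding and the SRF axis, 17 fell and 1 rose after quantile normalization, with a median of -1.83, against 20.3% of all genes lower and 21.2% higher. The myosin light chain Myl9 fell by 7.97, the most of the 20, from a mean of 292 FPKM in 2D to 0.0187 FPKM in 3D. The rise was that of the SRF cofactor Mkl2, by 0.98 (SE 0.14, limma adjusted p = 0.0012). Arpc2 of the Arp2/3 complex was closest to 0, with -0.27 (limma adjusted p = 0.0980). The lists of this report were chosen with earlier results of these data known, so their counts describe them and are not independent evidence of their direction. The counts of the lists that follow are to be read against the same shares of all genes, and against the 55.8% called in either direction among genes whose mean reached 1 FPKM.

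Gapdh was lower in every 3D library and passed on both scales, with a smaller difference after quantile normalization. The deposited values in 2D were 1429.9 FPKM in mouse 2, 1324 FPKM in mouse 3, 1298 FPKM in mouse 4 and 1494 FPKM in mouse 5. In 3D they were 836 FPKM in mouse 1, 948 FPKM in mouse 4, 602 FPKM in mouse 5 and 461 FPKM in mouse 7. The 2D libraries lay close together and the 3D libraries ranged widely, with SDs of 0.095 and 0.47 on the log2 scale. The limma fit gave a log2 difference of -1.01 (SE 0.26, limma adjusted p = 0.0139) as deposited and -0.59 (SE 0.17, limma adjusted p = 0.0280) after quantile normalization. The second call was lost when any of 5 libraries was left out, with an adjusted p of 0.0573 without the 2D library of mouse 4. It was also lost when small noncoding RNA genes were removed before normalization, with an adjusted p of 0.0726.

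The glycolytic list did not move one way. Of 16 genes, 4 rose and 2 fell after quantile normalization, with a median of -0.10. The phosphofructokinase Pfkp fell by 1.66 and the aldolase Aldoc rose by 4.61, from a mean of 0.22 FPKM in 2D to 48.6 ± 58.8 FPKM in 3D (SD, n = 4). The triose isomerase Tpi1 was closest to 0, with -0.07 (limma adjusted p = 0.863). As deposited, 3 rose and 5 fell, with a median of -0.52.

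Sdha overlapped as deposited and rose after quantile normalization. The 2D values, as deposited, were 67.5 FPKM in mouse 2, 59.4 FPKM in mouse 3, 72.8 FPKM in mouse 4 and 68.2 FPKM in mouse 5. The 3D libraries gave 74.96 FPKM in mouse 1, 58.0 FPKM in mouse 4, 59.99 FPKM in mouse 5 and 60.9 FPKM in mouse 7. The highest and the lowest of the 8 values were both from 3D. As a log2 difference this was -0.08 (95% interval -0.32 to 0.16, limma adjusted p = 0.548) as deposited and 0.38 (95% interval 0.14 to 0.62, limma adjusted p = 0.0215) after quantile normalization. The second call was lost without the 2D library of mouse 2 (limma adjusted p = 0.0575), mouse 3 (0.0530) or mouse 5 (0.0543).

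Of the other subunits of succinate dehydrogenase, Sdhc rose by 0.53 (limma adjusted p = 0.0055) after quantile normalization, while Sdhb and Sdhd had differences of 0.0016 and 0.00094. Of 18 genes of this complex and the citric acid cycle, 7 rose and 5 fell, with a median of 0.04. The largest rise was that of the succinyl-CoA ligase subunit Suclg2, by 0.63, and the largest fall that of the assembly factor Sdhaf2, by 1.03. As deposited 2 rose and 9 fell, so the balance of this list depended on the scale.

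Hprt gave a call only without quantile normalization. The deposited values in 2D were 91.2 FPKM in mouse 2, 83.6 FPKM in mouse 3, 103 FPKM in mouse 4 and 80.9 FPKM in mouse 5. In 3D they were 69.1 FPKM in mouse 1, 78.0 FPKM in mouse 4, 59.9 FPKM in mouse 5 and 56.6 FPKM in mouse 7. The cultures were separate by a narrow margin, 80.9 against 78.0 FPKM. The log2 difference was -0.44 (SE 0.12, limma adjusted p = 0.0209) as deposited and 0.06 (95% interval -0.25 to 0.36, limma adjusted p = 0.742) after quantile normalization. Of 16 genes of purine salvage and synthesis, none rose and 5 fell after normalization, with a median of -0.05. The largest fall was that of Impdh1, an enzyme of guanine nucleotide synthesis, by 2.13, and Gmps of the same branch was closest to 0, with -0.01 (limma adjusted p = 0.923).

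Gusb fell on both scales. As deposited, the 2D values were 42.4 FPKM in mouse 2, 37.97 FPKM in mouse 3, 29.8 FPKM in mouse 4 and 39.1 FPKM in mouse 5. For 3D the values were 17.8 FPKM in mouse 1, 8.78 FPKM in mouse 4, 13.4 FPKM in mouse 5 and 14.9 FPKM in mouse 7. Mouse 4 was the lowest library in both cultures, and the cultures were separate. The fitted log2 difference was -1.41 (SE 0.21, limma adjusted p = 0.0012) as deposited and -1.28 (SE 0.21, limma adjusted p = 0.0023) after quantile normalization. Of 15 lysosomal glycosidases, 4 rose and 4 fell, with a median of -0.10. The hexosaminidase subunit Hexa fell by 2.40, the sialidase Neu1 rose by 2.11, and the mannosidase Man2b1 was closest to 0, with -0.10 (limma adjusted p = 0.732).

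Ppia was lower in 3D as deposited and did not pass after quantile normalization. The deposited values in 2D were 3348 FPKM in mouse 2, 1877 FPKM in mouse 3, 1765 FPKM in mouse 4 and 2479 FPKM in mouse 5. The 3D values were 1387 FPKM in mouse 1, 1081 FPKM in mouse 4, 1056 FPKM in mouse 5 and 1084 FPKM in mouse 7. The cultures were separate, and the 2D library of mouse 2 was the highest. The log2 difference was -0.9999 (SE 0.29, limma adjusted p = 0.0259) as deposited and -0.77 (95% interval -1.58 to 0.04, limma adjusted p = 0.118) after quantile normalization. Of 13 cyclophilins, 2 rose and 3 fell, with a median of -0.16. Ppic fell by 2.30, the mitochondrial Ppif rose by 0.84, and Ppwd1 was closest to 0, with -0.01 (limma adjusted p = 0.973).

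Ywhaz did not pass on either scale, and its direction turned between them. Its deposited 2D values were 132 FPKM in mouse 2, 159 FPKM in mouse 3, 155 FPKM in mouse 4 and 119.8 FPKM in mouse 5. In 3D they were 125 FPKM in mouse 1, 106 FPKM in mouse 4, 121 FPKM in mouse 5 and 116 FPKM in mouse 7. The lowest 2D library lay within the 3D range. The fitted difference (log2) was -0.26 (95% interval -0.52 to -0.0043, limma adjusted p = 0.0922) as deposited and 0.31 (95% interval -0.03 to 0.65, limma adjusted p = 0.132) after quantile normalization.

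The 14-3-3 proteins did not share one pattern. Of the 7, Ywhag fell by 1.52, Ywhah by 1.27 and Ywhab by 0.47 after quantile normalization, and Sfn, the epithelial 14-3-3 sigma, rose by 2.33 from a mean of 3.56 FPKM in 2D to 24.1 FPKM in 3D. Ywhae was closest to 0, with 0.0074 (limma adjusted p = 0.953), and Ywhaq had a difference of 0.32 (limma adjusted p = 0.0518). As deposited 1 rose and 4 fell.

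Tbp was the lowest in level and the steadiest. The 2D values as deposited were 10.02 FPKM in mouse 2, 9.32 FPKM in mouse 3, 8.25 FPKM in mouse 4 and 10.7 FPKM in mouse 5. The 3D libraries gave 9.09 FPKM in mouse 1, 8.96 FPKM in mouse 4, 8.35 FPKM in mouse 5 and 9.09 FPKM in mouse 7. All 3D values lay within the 2D range. The log2 difference was -0.10 (95% interval -0.34 to 0.15, limma adjusted p = 0.483) as deposited and -0.19 (95% interval -0.43 to 0.05, limma adjusted p = 0.190) after quantile normalization. At the estimated depth its value rests on between 229 and 333 fragments in a library, by its shortest principal transcript. Of 19 genes of TFIID and RNA polymerase II, 5 rose and 4 fell, with a median of -0.13. Tbpl1, a relative of Tbp, fell by 0.93, Taf4a rose by 0.77, and Taf1 was closest to 0, with 0.04 (limma adjusted p = 0.811).

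**Figure D2:**
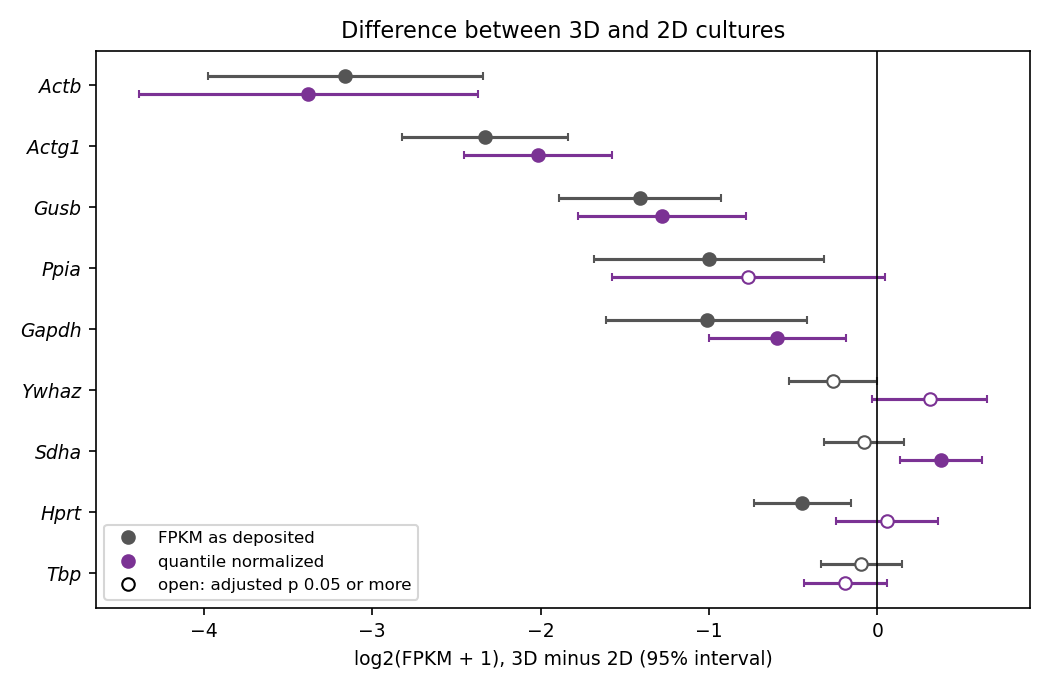
Difference of each reference gene between 3D and 2D cultures in log2(FPKM + 1), with its 95% interval from limma, as deposited (grey) and after quantile normalization (purple). Filled points passed an adjusted p below 0.05. Ywhaz, Sdha and Hprt lie on opposite sides of 0 on the 2 scales, and the intervals of both actins end below -1.57 on both scales.

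The scales differed in how they placed highly expressed genes. As deposited, the 780 genes whose mean reached 100 FPKM had a median log2 difference of -0.57, and after quantile normalization the 772 such genes had a median of 0.0072. Scaling by 1 factor for each library left this shift in place, with a median of -0.54 for median-of-ratios scaling and -0.51 for upper-quartile scaling. The share of small noncoding RNAs in the FPKM ranged from 31.4% to 50.9% in 2D and from 52.0% to 68.8% in 3D, so that it was higher in every 3D library. The part of this share in the difference between the scales was not tested. Of the FPKM outside these RNAs, the 9 reference genes together took between 1.92% and 2.89% in 2D and between 0.724% and 0.918% in 3D.

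Ratios of reference genes within a library do not change with any factor that scales a whole library, and they were tested on the deposited values. Of the 36 pairs, 25 differed between the cultures with an adjusted p of 0.0411 (two-sided exact permutation test). The smallest p of this test, 0.0286, arises only where the libraries do not overlap, so passing and not overlapping are the same result here. The adjusted p of each pair depends on how many pairs reach that floor, those with an actin among them. The share of such pairs among other genes was not computed, and 45.5% of single genes did not overlap as deposited. All 15 pairs with an actin passed, with sizes between 0.83 and 3.08 on the log2 scale. Against Gapdh, Actb fell by 2.15, that is by 2.26 within mouse 4 and by 2.15 within mouse 5. The largest difference was that of Actb to Sdha, which fell by 3.08.

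Tbp, Hprt, Sdha and Ywhaz are the 4 genes with the smallest SD over these libraries, so small differences among them restate that choice. None of their 6 pairs passed, with sizes between 0.02 and 0.37. The log2 ratio of Tbp to Sdha was -2.81 ± 0.23 in 2D and -2.83 ± 0.15 in 3D (SD, n = 4 each, exact permutation p = 0.8). That of Hprt to Sdha was 0.42 ± 0.12 in 2D and 0.05 ± 0.26 in 3D (exact permutation p = 0.0571, adjusted p = 0.0791). On quantile normalized values 24 of the 36 pairs passed, and Tbp to Sdha was then among them.

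None of the 3 pairs among Gapdh, Ppia and Gusb passed. The difference was 0.46 for Gapdh to Gusb (1.31 in mouse 4 and 0.24 in mouse 5) and 0.48 for Ppia to Gusb (1.05 and 0.32). The ratio of Gapdh to Ppia had the smallest difference of all pairs, -0.01 (exact permutation p = 0.943), with 0.25 in mouse 4 and -0.08 in mouse 5. Of the 12 pairs between these genes and the 4 with the smallest SD, 10 passed. The ratio of Gapdh to Hprt fell by 0.56 (adjusted p = 0.0411), by 0.05 within mouse 4 and by 0.87 within mouse 5. Of all 36 pairs, 30 had the same sign in mice 4 and 5.

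**Figure D3:**
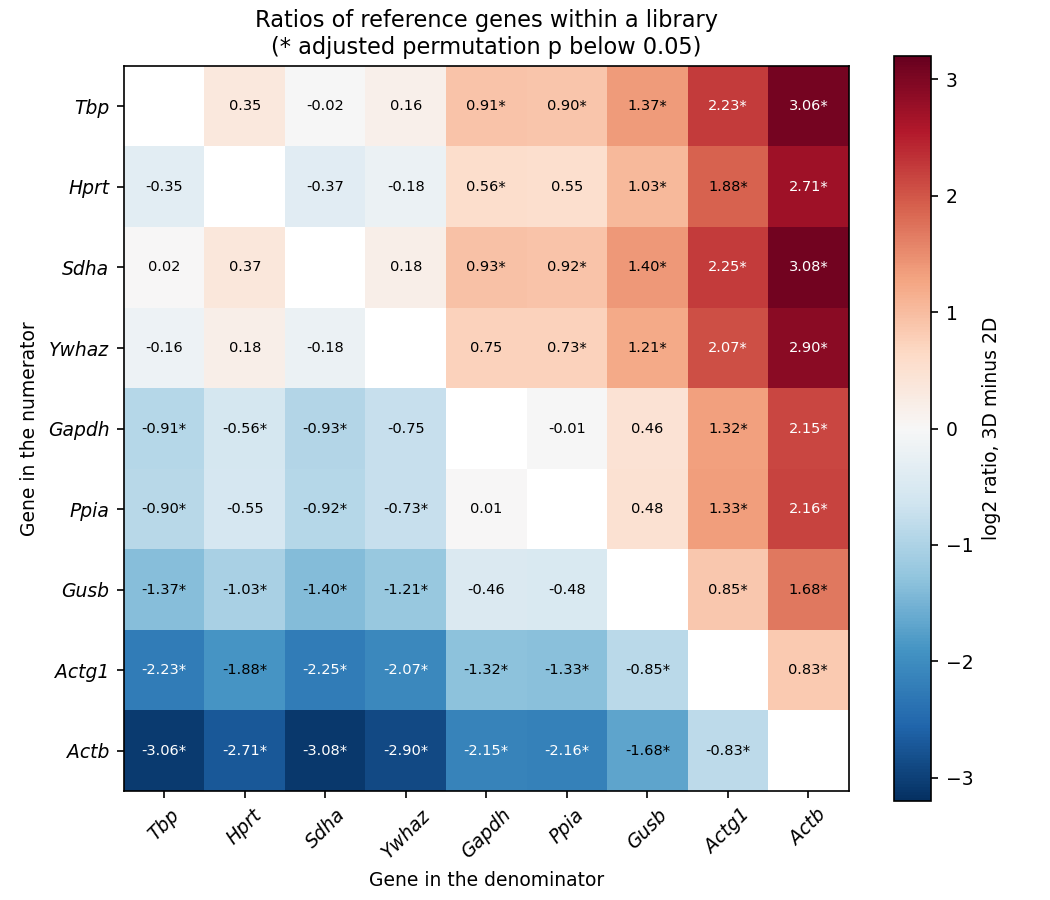
Difference between 3D and 2D in the log2 ratio of the gene in the row to the gene in the column, on deposited FPKM without a pseudocount, with red for higher and blue for lower in 3D. Stars mark an adjusted exact permutation p below 0.05. The block of Tbp, Hprt, Sdha and Ywhaz holds no star, and every pair with Actb or Actg1 holds one.

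Ranked by the SD of log2(FPKM + 1) over the 8 libraries, Tbp was the steadiest and Actb the least steady of the 9 genes on both scales. As deposited, the SDs were 0.11 for Tbp, 0.14 for Sdha, 0.20 for Ywhaz, 0.29 for Hprt, 0.61 for Ppia, 0.63 for Gapdh, 0.81 for Gusb, 1.26 for Actg1 and 1.72 for Actb. After quantile normalization they were 0.14 for Tbp, 0.18 for Hprt, 0.25 for Sdha, 0.26 for Ywhaz, 0.37 for Gapdh, 0.61 for Ppia, 0.75 for Gusb, 1.09 for Actg1 and 1.88 for Actb. The same 4 genes led on both scales, and their order among themselves differed.

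The median SD of the 12583 genes whose mean reached 1 FPKM was 0.47 as deposited and 0.45 after normalization. Ppia, Gusb, Actg1 and Actb lay above it on both scales, and Gapdh lay above it as deposited only. Tbp lay at percentile 1.33 of these genes as deposited and 4.90 after normalization, and Actb at percentiles 91.7 and 93.4. Taking the larger of the 2 SDs, Sdha ranked 538, Ywhaz 642 and Hprt 847 of the 4085 genes whose mean reached 20 FPKM. The 5 steadiest of these were Elp3, Smim7, Whsc1l1, Metap1 and Plrg1, with SDs between 0.076 and 0.099 and means between 21.9 and 25.3 FPKM.

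**Figure D4:**
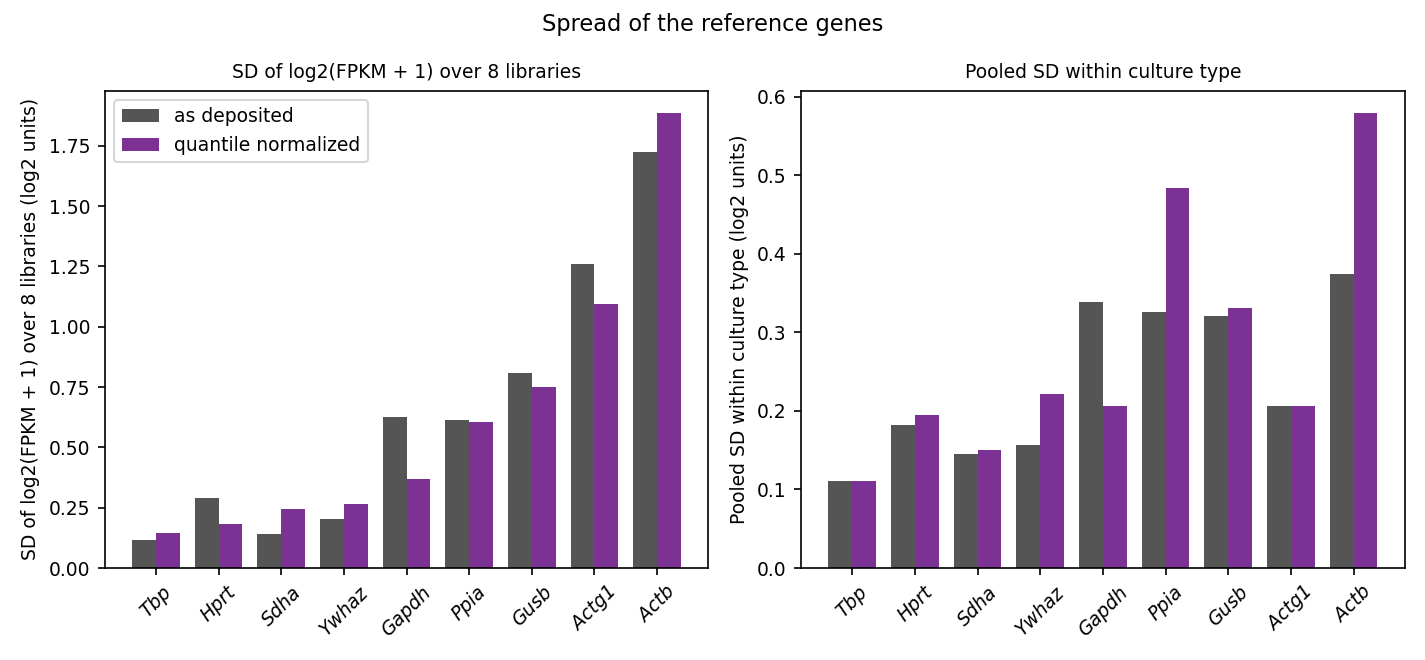
SD of log2(FPKM + 1) of each reference gene over all 8 libraries (left) and pooled within the culture types (right), as deposited (grey) and after quantile normalization (purple). Over 8 libraries Actb reaches 1.72 and 1.88, and Actg1 is far steadier within cultures (0.21) than across them.

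The measure M of geNorm, the mean SD of the log2 ratios of a gene to the others, asks which genes move together. Over all 9 genes as deposited, M was lowest for Ppia (0.60), with Tbp at 0.69 and Actb at 1.28, so that it ranked the genes differently from the SD. When the gene with the highest M was removed step by step, Actb, Actg1 and Gusb left first on both scales. Tbp and Sdha were the last pair as deposited (M = 0.18), and Ywhaz and Sdha after quantile normalization (M = 0.20).

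The choice of reference changed the RNA ratios of the genes that the study assayed by qPCR or blot. These ratios come from sequenced RNA and are not the assay values of the study. The study assayed Acta2, Fn1, Vim, Cdh2, Tjp1 and Vcl as protein on blots. The log2(FPKM + 1) of 12 such genes was taken relative to each of the 9 reference genes, which gave 108 comparisons on deposited values. Of these, 93 differed between the cultures, and the smallest adjusted p was 0.0332 (two-sided exact permutation tests). The 9 comparisons of an assayed gene share its values and are not separate results, and the share for genes in general was not computed. A change of reference shifts the difference of every assayed gene by the same amount, so that by construction each was lowest against Sdha and highest against Actb. Adipoq, also assayed, was listed at 0 in every library.

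The genes with very large differences kept their direction with all 9 references. The epithelial genes Cdh1, Epcam and Krt18 rose, with Krt18 between 4.66 and 7.74. By the paper, EpCAM was higher as mRNA and lower as protein in 3D, and CK18, the product of Krt18, did not change. The 2D libraries differed widely in Krt18, from 0 to 256 FPKM (quantile normalized), with an SD of the ratio to Sdha of 3.99 log2 units in 2D, and by limma Krt18 did not pass (adjusted p = 0.0687 as deposited). The mesenchymal genes Acta2, Vim, Fn1 and Cdh2 fell, with Cdh2 between -6.43 and -3.35. The adipogenic lipase Lpl passed as lower with 7 references, from -3.69 to -0.61. At a pseudocount of 0.1 in place of 1 it passed with all 9.

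Genes with smaller differences depended on the reference. The tight junction gene Tjp1 rose with 8 references, from 0.75 against Tbp to 3.82 against Actb, and had a difference of 0.74 against Sdha (adjusted permutation p = 0.0650). Vcl fell with 7 references, by 2.32 against Sdha and by 1.38 against Gapdh, and with 5 on quantile normalized values. Against Actg1 Vcl had a difference of -0.07 (adjusted permutation p = 0.663), and against Actb it rose by 0.76 (adjusted permutation p = 0.0332).

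The proliferation gene Mki67 passed with none of the 9 references, with values from -1.29 against Sdha to 1.79 against Actb. The adipogenic regulator Pparg fell with 7 references, with -2.36 against Sdha. Against Actb it had a difference of 0.72 (adjusted permutation p = 0.156), which turned to -1.06 at a pseudocount of 0.1.

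**Figure D5:**
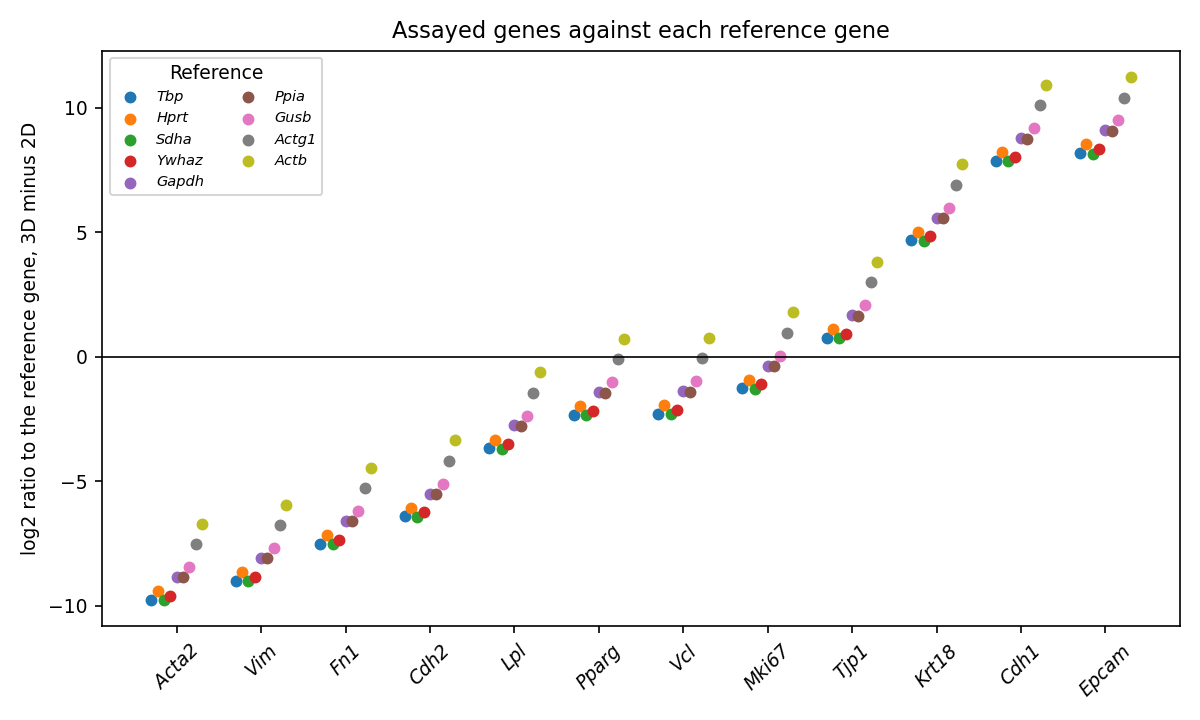
Difference between 3D and 2D in the log2 ratio of 12 assayed genes to each reference gene, on deposited log2(FPKM + 1). By construction the 9 references span the same 3.08 log2 units for each assayed gene, from Sdha at the bottom to Actb at the top, and Vcl, Mki67 and Pparg lie on both sides of 0.

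A further 27 genes in use as references were read in the same way. After quantile normalization 4 rose, B2m and Eif4a2 among them, and 5 fell (Vcl, Tubb5, Alas1, Atp5b and Ppib), with a median of -0.09. These 9 of 27 are a smaller share than the 41.5% of all genes tested and the 55.8% among genes whose mean reached 1 FPKM. B2m, the light chain of MHC class I, had the largest rise, by 2.15 (SE 0.65, limma adjusted p = 0.0315), with means of 186 ± 48.5 FPKM in 2D and 1047 ± 627 FPKM in 3D (SD, n = 4 each). Its libraries overlapped between the cultures. The proteasome subunit Psmb2 was closest to 0, with -0.07 (95% interval -0.54 to 0.41). As deposited 1 rose and 9 fell, against 44.3% of all genes in either direction. Neither B2m (adjusted p = 0.0810 by limma) nor Eif4a2 (adjusted p = 0.0906) passed on that scale.

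The genes whose pattern over the 8 libraries was most like that of a reference gene were read by Pearson's r among 6955 genes whose mean reached 10 FPKM, as a description over libraries that share their culture type. For Actb they were Cthrc1 (r = 0.994) and Ilk (r = 0.993), and for Actg1 Cep170 (r = 0.998) and Ptk2 (r = 0.997). Gapdh was most like Gja1 (r = 0.992) and Scd1 (r = 0.985), and Gusb most like Sep15 (r = 0.988) and Hacd1 (r = 0.983). For Ppia they were Mrps11 and Gid4, for Ywhaz Apoa1bp and Calcoco1, and for Sdha Lcmt1 and Ankmy2, all with r between 0.960 and 0.985. Hprt had the weakest match, with Sart3 (r = 0.932), and Tbp was most like Cks2 (r = 0.968) and Mad1l1 (r = 0.956).

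The libraries from mice 4 and 5 allow the comparison within an animal, and that of mouse 4 has the highest sum of epithelial markers among the 2D libraries. Without the 2D library of mouse 4, Actb had a quantile normalized difference of -3.65 (limma adjusted p = 0.0017), Actg1 of -2.09 (limma adjusted p = 0.000540) and Gusb of -1.34 (limma adjusted p = 0.0054). Sdha then had 0.43 (limma adjusted p = 0.0172), and 4 of the 9 genes passed, against 39.2% of all genes in that fit. With the mouse as a replicate block none of the 9 genes stayed below the adjusted threshold. The unadjusted p of 3 of them lay below 0.05 in that fit, at 0.0083 for Gusb, 0.0227 for Actg1 and 0.0244 for Actb. That fit has 1 residual degree of freedom and called 0 of all 18862 genes.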

How the data were processed

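RNA of 4 2D and 4 3D cultures was sequenced. The authors depleted ribosomal RNA and made directional libraries. FastQC served them for read quality, FASTX_Trimmer and BBMap for trimming, TopHat for mapping and Cufflinks for the FPKM value of each gene. The submitters' processing notes name mm10, and the annotation is not given in the sources used here. The deposited FPKM values hold no read counts and were not yet quantile normalized. Coordinates are those of GENCODE M21 (GRCm38).

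Of 24346 genes, 5484 at 0 in every library were left out. The values were quantile normalized over the other 18862 genes, converted to log2(FPKM + 1), and compared between cultures with limma 3.58.1 in R 4.3.3 (empirical Bayes with an intensity trend, no covariates, Benjamini-Hochberg adjustment over all genes tested). A fold on this scale understates the change of low genes. Ratios of genes within a library were compared by two-sided exact permutation tests in Python 3.11.15 with SciPy 1.17.1, adjusted over the 36 pairs and over the 108 comparisons of the assayed genes. Ratios of 2 reference genes used no pseudocount. The SDs, the M values and the correlations are descriptions without tests.

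Low FPKM values of 875 long genes (1 transcript each, 3000 nt or more) lie on steps of 1 fragment, and these steps gave a depth of 16.4 to 17.4 M fragments for 2D libraries and 14.5 to 15.6 M for 3D libraries. Between 67.8% and 79.8% of these low values lay within 0.15 of a whole multiple of the step, so no count test was run. The limma script was tested on simulated data.

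Named were the 9 genes, all assayed genes and Vcl, the paralogs of a reference gene, and of each list the member with the largest rise, that with the largest fall among those past the threshold, and that closest to 0 among genes that averaged 1 FPKM or more. The 2 genes most like each reference gene and the 5 steadiest genes were also named. Other called genes among the 27 further references were named after their values were seen. Some genes under this rule are not reported here. The reference genes and the lists were chosen with earlier results of these data known.

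The mouse numbers pair mice 4 and 5, which gave both cultures. After centring each culture on its mean, the 2 libraries of mouse 4 correlated at -0.05 and those of mouse 5 at -0.11 (12583 genes). The alternatives were other scalings, a pseudocount of 0.1, a filter on low values, no intensity trend, the mouse as a replicate block or random effect, mice 4 and 5 alone, and the omission of single libraries.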

Additional observations from a re-analysis of the deposited data

Results flagged for a closer look

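Of the 18 groups of 4 libraries examined (9 reference genes in 2 cultures, quantile normalized), 2 held a library far from the others by Dixon's 95% criterion. Chance alone flags about 1 in 20 groups. For Ppia, mouse 2 had 4171.5 FPKM in 2D and the next highest 2D library had 2149 FPKM, a gap of 0.832 of the range of the group. For Sdha, mouse 4 had 65.6 FPKM in 2D and the next highest 2D library 56.9 FPKM, a gap of 0.88 of the range.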

How the results depend on the processing

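With the replicate block for the mouse, which leaves 1 residual degree of freedom, 0 of the 9 reference genes passed (3 at an unadjusted p below 0.05), and 0 of the 27 further references (4 unadjusted). Restricted to mice 4 and 5, the counts were 1 and 3, while of all 18862 genes 1486 passed as higher and 1127 as lower in 3D. Leaving out 1 library gave between 3 and 5 reference genes, with 3 without the 2D library of mouse 3 or of mouse 5. It gave between 5 and 8 of the further references, with 5 without the 2D libraries of mice 2 or 5 or the 3D libraries of mice 5 or 7. Of all 18862 genes, these fits called between 3380 and 4053 as higher and between 3197 and 3824 as lower in 3D. The other scalings and settings gave between 4 and 6 reference genes and between 7 and 11 further references. With the filter on low values, 55.8% of 12583 genes passed. The rest called between 3948 and 4521 genes as higher and between 3779 and 4069 as lower in 3D. They tested 18862 genes, or 18727 without small noncoding RNA genes. The cause of the differences between settings was not tested.

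The direction of Hprt turned to -0.44 as deposited, -0.42 with median-of-ratios scaling and -0.39 with upper-quartile scaling, and to -0.0045 without the 2D library of mouse 5 and -0.032 without the 3D library of mouse 4. Its range over single libraries left out was -0.032 to 0.13. That of Ywhaz turned to -0.26, -0.24 and -0.21 and that of Sdha to -0.081, -0.055 and -0.025 under the same 3 scalings. Over the 18 alternatives Actb passed in 17, Actg1 and Gusb in 16, Gapdh and Sdha in 10, Ppia and Hprt in 3, and Tbp and Ywhaz in 0.

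Of the pair ratios, between 25 and 27 did not overlap when 1 library was left out. The permutation test cannot pass the threshold over 36 pairs with 3 against 4 libraries, so no such count was made. Of the 108 comparisons of assayed genes, 96 passed with a pseudocount of 0.1 and 92 on quantile normalized values. Tbp, Hprt, Sdha and Ywhaz were the 4 steadiest genes in all 12 settings tried, and Tbp led in all but 1, without the 3D library of mouse 4, in which Hprt led with an SD of 0.15.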
